A study of Mus musculus with 8 samples.

Results

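Androgen-regulated prostate genes are genes whose transcription in prostate epithelium follows testosterone and dihydrotestosterone. Steroid hormones act through nuclear receptors that, once bound by hormone, attach to short DNA repeats, and the repeats that serve androgen can also serve glucocorticoid, so that genes such as Fkbp5 respond to both hormones. In the normal gland these genes include the secreted proteins of the prostatic fluid, whose levels drop after castration, and their return is often read as a sign that androgen signaling is active again in castrate resistant disease.

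The 8 genes described here were Fkbp5, Steap4, Slc45a3, Msmb, Pbsn, Tmprss2, Azgp1 and Homer2, found by exact gene name among 38115 genes with read counts in every table. They were measured in 8 tumors of Myc-CaP, a mouse prostate cancer line that was derived from a tumor driven by a MYC transgene under a modified probasin promoter, so the control region of one of these genes, Pbsn, also drove the oncogene. Cells of the androgen sensitive (AS) or castrate resistant (CR) line were placed in the anterior prostate lobes of FVB male mice that were intact or castrated beforehand, and 2 tumors were sequenced from each of 4 groups: primary AS, primary CR, metastatic AS and metastatic CR. Which hosts carried which line, the ages of the mice, and the organ of each metastasis are not given in the labels. The AS and CR tumors thus differed in cell line as well as phenotype, and may have differed in host, and these cannot be told apart. The metastases are described as matched, so a metastasis and a primary tumor may come from the same mouse, but which belong together is not stated, and nothing says that the 2 tumors of a group came from separate experiments. P-values therefore measure the spread between these tumors.

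The libraries held 20905806 to 91886163 counts, with 61237285 to 91886163 in AS tumors and 20905806 to 76887592 in CR tumors. Metastatic CR 2 was the smallest library and placed 0.15% of its counts on genes too rare to test, against 0.0155% to 0.0405% in the other 7. After scaling between libraries, primary CR 2 had the lowest total (20476681, against 24734711 in metastatic CR 2), so a single count weighs most in primary CR 2. The prostate label was checked with luminal epithelial markers: Krt8 (2281 to 58632 counts), Foxa1 (1674 to 6609), Hoxb13 (126 to 3924) and Psca (1071 to 31714) were counted in every tumor, while Krt18, Epcam and Cdh1 stayed between 0 and 41 counts in each. Among markers of other cell types, lists for lung epithelium, seminal vesicle, adipocytes and lymphocytes summed to at most 1.31 CPM in any tumor (CPM, counts scaled to an effective library total of 1000000). The neuroendocrine list summed to 0.246 to 1.61 CPM, skeletal muscle to 0.733 to 14.7, fibroblasts to 34.4 to 81.8, endothelium to 38.2 to 82.4 and macrophages to 89.1 to 249 CPM, with AS and CR tumors overlapping in each. The hepatocyte list moved with phenotype, from 3717 to 10194 CPM in AS tumors and 96.3 to 1947 CPM in CR tumors. Almost all of that was Fgb, while Ttr had 76 to 1575 counts, Alb 0 to 99, Apoa1 2 to 18 and Apoc3 0 to 5. The basal epithelial list moved as well, from 3.70 to 4.25 CPM in AS tumors and 0.488 to 1.74 CPM in CR tumors, almost all of it Trp63, while Krt5 and Krt14 had 1 to 35 counts. The part of these cell types in the phenotype results was not tested.

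The sequences just before the genes' starts are the part of each gene where promoters lie. RefSeq gives windows of 250 bases before the start for 7 of the 8 genes, with 9 windows in all, on GRCm38.p6. Those of the 2 genes with the highest levels, Fkbp5 and Steap4, and of 2 genes near 0, Pbsn and Tmprss2, are printed 5′ to 3′ on the gene's own strand, in lower case, with the short receptor motif AGAACA (or its reverse complement TGTTCT) in capitals. The Fkbp5 window lies at chr17:28486150-28486399 (minus strand), that of Steap4 at chr5:7960222-7960471 (plus strand), that of Pbsn at chrX:77853501-77853750 (minus strand) and that of Tmprss2 at chr16:97611196-97611445 (minus strand). Those of Fkbp5, Steap4 and Pbsn lie wholly or partly inside the longer gene models of GENCODE.
Fkbp5: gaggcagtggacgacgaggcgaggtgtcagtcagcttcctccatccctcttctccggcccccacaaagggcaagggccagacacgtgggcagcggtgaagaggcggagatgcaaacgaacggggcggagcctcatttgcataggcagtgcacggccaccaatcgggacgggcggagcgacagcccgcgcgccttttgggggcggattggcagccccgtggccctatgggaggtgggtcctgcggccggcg
Steap4: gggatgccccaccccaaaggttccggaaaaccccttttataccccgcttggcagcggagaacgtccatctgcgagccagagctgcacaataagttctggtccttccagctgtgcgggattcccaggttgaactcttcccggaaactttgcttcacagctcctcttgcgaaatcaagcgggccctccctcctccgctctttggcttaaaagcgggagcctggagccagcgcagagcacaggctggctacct
Pbsn: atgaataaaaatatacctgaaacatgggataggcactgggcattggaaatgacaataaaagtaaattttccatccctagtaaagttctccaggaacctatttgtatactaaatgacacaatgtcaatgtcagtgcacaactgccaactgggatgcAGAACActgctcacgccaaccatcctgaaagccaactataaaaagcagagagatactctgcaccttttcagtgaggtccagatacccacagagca
Tmprss2: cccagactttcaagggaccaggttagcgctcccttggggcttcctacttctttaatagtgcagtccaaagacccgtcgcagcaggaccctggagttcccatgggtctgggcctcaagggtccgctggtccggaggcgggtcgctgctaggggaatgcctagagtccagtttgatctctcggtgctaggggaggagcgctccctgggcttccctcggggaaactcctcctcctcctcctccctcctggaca

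The motif occurred once among the 9 windows, in Pbsn, 95 bases before the start. Of all 32851 windows of this length, 16.1% held it on either strand. The palindrome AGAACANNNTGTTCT, to which both copies of a receptor pair can bind and which contains the short motif, was in none of the 9 windows and in 0.00913% of all windows. The 2 genes with the highest levels, Fkbp5 and Steap4, had no match in the printed window. Binding sites outside these windows were not searched.

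The 8 genes fell into a group counted in every tumor and a group at or near 0. Per exon length, which allows genes to be compared, Fkbp5 lay between 29.8 and 59.0 CPM per kilobase, Steap4 between 37.0 and 271, and Slc45a3 between 0.768 and 5.31. Msmb reached 11.5 in primary AS 1 and at most 1.15 elsewhere. Pbsn, Tmprss2, Azgp1 and Homer2 stayed at or below 0.608 in every tumor. On the same scale Fkbp5, Steap4 and Slc45a3 together made up 89.9% of the summed level of the 8 genes in primary AS 1, and 99.2% or more in each of the other 7 tumors. All 8 genes had at least 1 count in primary AS 1, and 4 of the 8 in each primary CR tumor. Among 21171 protein-coding genes the rank of Fkbp5 on this scale was 396 to 733.

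**Figure D1:**
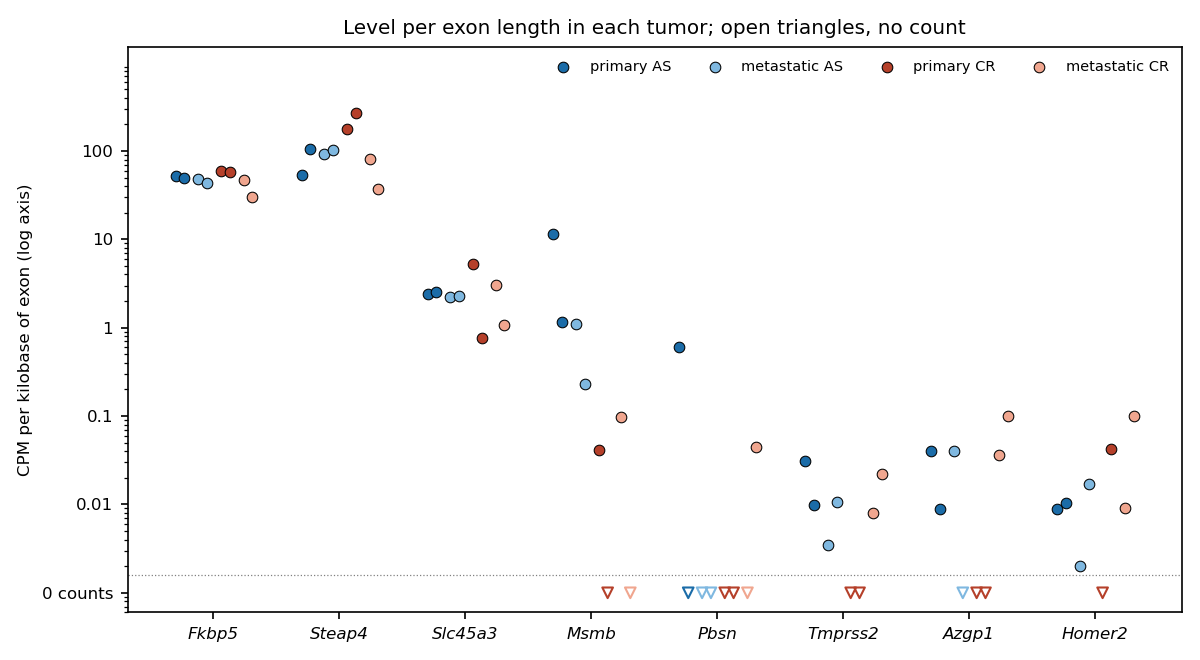
Level of the 8 androgen-regulated genes in each of 8 tumors, as CPM per kilobase of exon on a log axis, with 1 point per tumor colored by group and open triangles for tumors with no count. Fkbp5 and Steap4 lay at or above 29.8 in every tumor, Slc45a3 between 0.768 and 5.31, and Pbsn, Tmprss2, Azgp1 and Homer2 at or below 0.608.

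Fkbp5 encodes a co-chaperone of steroid receptors (ENSMUSG00000024222, mm10, chromosome 17, 28399094 to 28517527, minus strand). Its level was 494 and 470 CPM in primary AS tumors 1 and 2, 558 and 544 CPM in primary CR tumors, 450 and 410 CPM in metastatic AS tumors, and 445 and 282 CPM in metastatic CR tumors. Behind these values were 6980 to 45410 counts per tumor. All 4 metastases lay below all 4 primary tumors, and metastatic CR 2 was the lowest. AS and CR tumors overlapped. In CR tumors the mean was 457 ± 127 CPM and in AS tumors 456 ± 35.4 CPM (SD, n = 4 each).

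The phenotype comparison was made by edgeR's quasi-likelihood test across 18889 genes with tumor type as a term, and Fkbp5 did not pass it (log2 fold change CR against AS -0.02, SE 0.19, 95% interval -0.46 to 0.41, adjusted p = 0.951). Scaling by protein-coding counts alone shifts the CR minus AS difference in log2 CPM, with no 1 added, by -0.118. With 1 added, the shift differs for genes at low levels. Fkbp5's mean difference in log2(CPM + 1) was -0.04 under the main scaling and -0.16 on protein-coding counts. Neither passed the exact permutation test (p = 0.914 and p = 0.571). The sign of this small difference changed with other settings.

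In the comparison of metastatic with primary tumors, Fkbp5 was at 397 ± 78.4 CPM in metastases and 517 ± 41.6 CPM in primary tumors (SD, n = 4 each). The exact two-sided permutation test of log2(CPM + 1) gave p = 0.0286, the smallest that 4 tumors against 4 can give, also at the other pseudocounts and on protein-coding counts. This test treats the tumors as exchangeable, which matched tumors may not be, and an exact test over 4 pairs could not go below 0.125. On unadjusted library totals Fkbp5 overlapped between metastatic and primary tumors. Of the 8 genes, Fkbp5 alone had metastatic and primary tumors that did not overlap in level after scaling. Of the 17104 genes tested in this comparison, 0.889% were likewise lower in all 4 metastases, and 1.68% did not overlap in either direction. This p-value is not adjusted. In the edgeR fit across all genes, which had no phenotype term, Fkbp5 did not pass (log2 fold change -0.37, SE 0.19, 95% interval -0.81 to 0.07, adjusted p = 0.997). No gene did in that fit (0.0% called), while 459 genes had an unadjusted p under 0.05 (2.68%), and DESeq2 called 0 as well, with 611 at an unadjusted p under 0.05. With phenotype as a term, edgeR called 0 genes, with 1213 of 18889 at an unadjusted p under 0.05. Fkbp5 was then at -0.38 (adjusted p = 0.743). In the fit without that term, leaving out metastatic CR 2 gave Fkbp5 a log2 fold change of -0.25. Since all 4 metastases lay below the primary tumors after scaling, the 2 metastases also lay below the 2 primary tumors within each phenotype. This held for 18.6% of genes in AS and 17.5% in CR tumors. The log2 difference was -0.16 (SE 0.27) in AS tumors and -0.60 (SE 0.27) in CR tumors, with adjusted p-values of 1 and 0.625. Without metastatic CR 2 the difference in CR tumors was -0.32.

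Steap4 encodes a membrane metalloreductase of iron and copper that is induced by androgen in prostate cancer cells (ENSMUSG00000012428, mm10, chromosome 5, 7960457 to 7982213, plus strand). It was at 170 and 333 CPM in primary AS tumors, 564 and 855 CPM in primary CR tumors, 293 and 323 CPM in metastatic AS tumors, and 253 and 117 CPM in metastatic CR tumors. The 2 primary CR tumors were the highest of all 8 and the 2 metastatic CR tumors were among the 3 lowest. The order of the group means was thus primary CR (710 ± 206 CPM), metastatic AS (308 ± 21.3 CPM), primary AS (251 ± 116 CPM) and metastatic CR (185 ± 96.4 CPM; SD, n = 2 each). Metastatic and primary AS tumors overlapped, as did primary AS and metastatic CR tumors.

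The phenotype difference of Steap4 went opposite ways in primary and metastatic tumors. Over all tumors, CR tumors were at 447 ± 330 CPM and AS tumors at 280 ± 75.3 CPM (SD, n = 4 each; log2 fold change 0.38, SE 0.51, adjusted p = 0.670). Within primary tumors the log2 fold change of CR against AS was 1.5 (SE 0.46, 95% interval 0.45 to 2.55, adjusted p = 0.221). Within metastases it was -0.73 (SE 0.45, 95% interval -1.77 to 0.30, adjusted p = 0.395). The 2 primary CR tumors lay above the 2 primary AS tumors and the 2 metastatic CR tumors lay below the 2 metastatic AS tumors. Counting either direction, 41.6% of genes did not overlap between phenotypes in primary tumors and 57.1% in metastases. The share of genes with opposite directions in the 2 tumor types was not counted. The edgeR tests called 0.296% and 0.36% of genes in those 2 contrasts and none of the 8 described here.

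The difference between those 2 contrasts, tested as an interaction of phenotype and tumor type, was -2.23 for Steap4 on the log2 scale (SE 0.64, 95% interval -3.70 to -0.76), but its adjusted p was 0.964 across all genes. It lay between -2.96 and -1.79 when each tumor was left out in turn. No gene passed the interaction test (0.0% called), with 517 at an unadjusted p under 0.05 (2.74%), while DESeq2 called 2, Chad and Atp6v0d2, which were named after their values were seen. Without the filter on rare genes, the adjusted p of Steap4 in edgeR was 0.0013, in a fit that called 217 of 31875 genes. From primary to metastatic CR tumors Steap4 differed by -1.94 (SE 0.46, 95% interval -3.0 to -0.87, adjusted p = 0.625), and from primary to metastatic AS tumors by 0.29 (SE 0.45, 95% interval -0.74 to 1.32, adjusted p = 1). In the first of these the 2 metastases lay below the 2 primary tumors, as did those of 17.5% of genes. The ratio of Fkbp5 to Steap4 per exon length, which does not depend on scaling, ran from 0.212 in primary CR 2 to 0.970 in primary AS 1.

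Slc45a3, also known as prostein, encodes a membrane transporter that is largely restricted to prostate (ENSMUSG00000026435, mm10, chromosome 1, 131962967 to 131982969, plus strand). It was at 8.50 and 8.95 CPM in primary AS tumors, 18.9 and 2.73 CPM in primary CR tumors, 7.87 and 8.13 CPM in metastatic AS tumors, and 10.9 and 3.84 CPM in metastatic CR tumors. The 4 AS tumors were nearly alike and the 4 CR tumors spread to both sides of them, with SDs of 0.470 and 7.49 CPM around means of 8.36 and 9.11 CPM. The 2 CR tumors below the AS tumors were the 2 smallest libraries, with 56 and 95 counts of Slc45a3, and their exact 95% counting intervals, 1.70 to 2.92 and 3.68 to 5.56 as CPM of the unadjusted library total, did not reach the AS values.

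Neither comparison passed for Slc45a3 (CR against AS: log2 fold change 0.11, SE 0.52, 95% interval -1.05 to 1.28, adjusted p = 0.912). The fold change was -0.69 without primary CR 1 (adjusted p = 0.301) and -0.20 without metastatic CR 1 (adjusted p = 0.877), so leaving out either tumor turned the sign. For metastatic against primary tumors it was -0.33 (SE 0.51, adjusted p = 0.997), and 0.20 without primary CR 1. Of its exonic read positions, 9.17% are shared with Gm29103, a gene on the same strand, and reads there could have been counted for either gene.

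**Figure D2:**
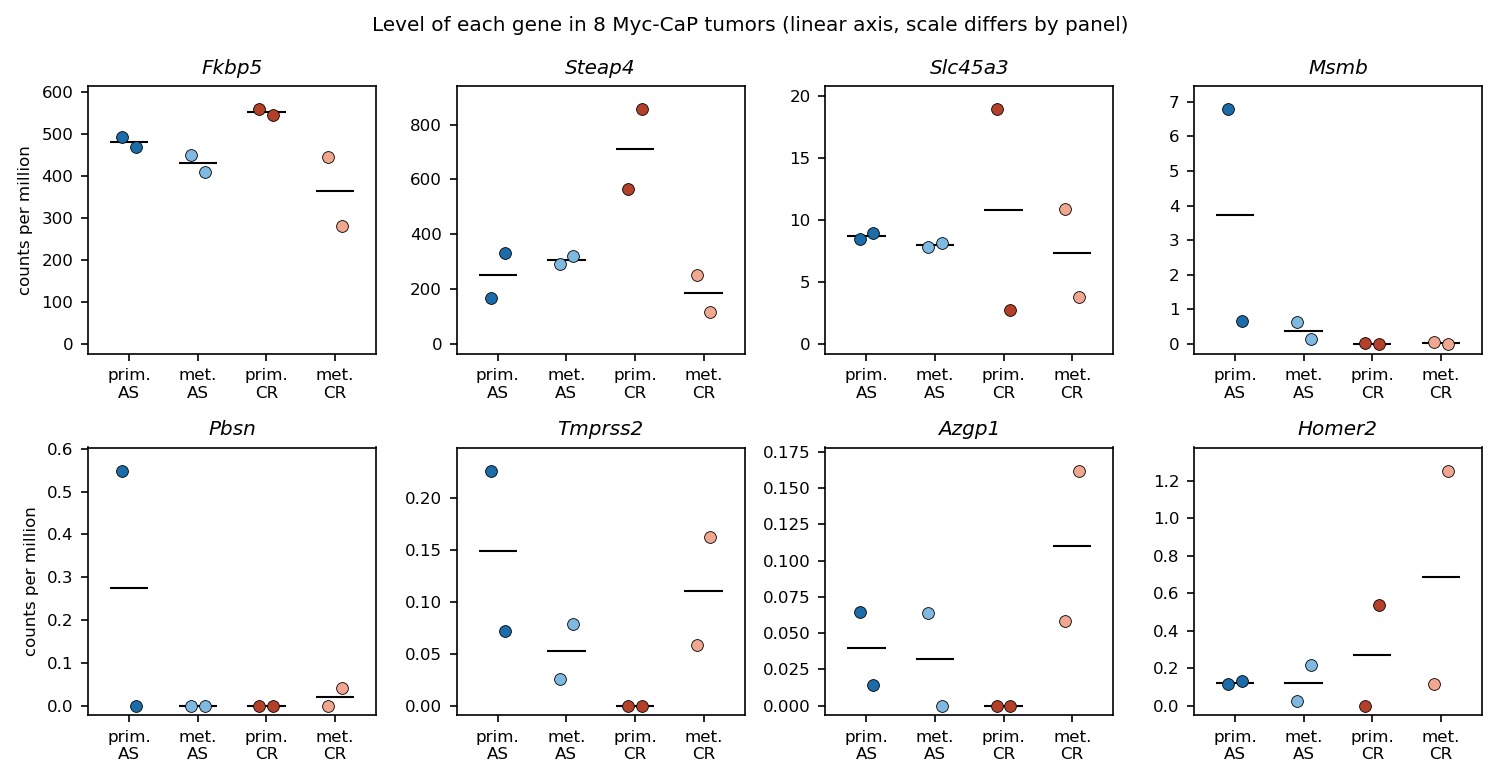
CPM of each of the 8 genes in primary (prim.) and metastatic (met.) AS and CR tumors, with 1 point per tumor, a line at each group mean (n = 2) and linear axes that differ by panel. After scaling between libraries, Fkbp5 was lower in all 4 metastases and Steap4 was highest in the 2 primary CR tumors. Slc45a3 was nearly level in AS and spread in CR tumors, and Msmb lay above its CR levels in all 4 AS tumors.

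Msmb encodes beta-microseminoprotein, a small secreted protein that is among the abundant proteins of prostatic fluid (ENSMUSG00000021907, mm10, chromosome 14, 32142023 to 32158370, plus strand). Its raw counts were 420 and 47 in primary AS tumors, 50 and 14 in metastatic AS tumors, 2 and 0 in primary CR tumors, and 2 and 0 in metastatic CR tumors. Every AS tumor lay above every CR tumor on the CPM scale. AS tumors ran from 0.137 to 6.77 and CR tumors from 0 to 0.0582. In primary CR 2, however, 0 counts allow up to 0.147 CPM (3 counts), above the 0.137 CPM of metastatic AS 2. Depth did not set these 2 tumors apart. Of the genes tested, 9.50% were lower in all 4 CR tumors than in all 4 AS tumors. The 4 CR tumors had 4 counts in all, so single counts set their level, and in bulk tumors fewer cells that make a transcript and less of it per cell cannot be told apart.

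Of the 6 genes tested for phenotype, Msmb alone passed (log2 fold change -6.13, SE 1.33, 95% interval -9.13 to -3.12, adjusted p = 0.0257), in a fit that called 10.1% of all genes and 5.29% as lower in CR tumors. Pbsn and Azgp1 were too rarely counted to be tested. Msmb passed the filter on rare genes through its AS tumors alone, and a fitted fold against tumors at or near 0 depends on the small prior count that edgeR adds. From summed counts, AS tumors held 68.6 times the level of CR tumors (exact 95% counting interval 26.6 to 253). Without primary AS 1, the tumor with 420 of the counts, the ratio was 17.9 (6.80 to 66.9). Within primary tumors it was 181 (49.8 to 1497) and within metastases 10.5 (2.79 to 88.7), the latter from 64 counts against 2. The intervals cover counting error only, with each read taken as an independent molecule. They leave out the spread between tumors. Both within-type fits left Msmb short of the threshold, with log2 fold changes of -7.48 (adjusted p = 0.114) and -3.46 (adjusted p = 0.286).

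The call rested on few tumors. Leaving out any of primary AS 1, primary CR 2, metastatic AS 1 or metastatic CR 2 raised the adjusted p to 0.0548, 0.0788, 0.0746 and 0.0562, and the call was lost. The fold change stayed between -7.48 and -4.27 over all 8 such fits. With all 8 tumors kept, the call held with DESeq2 (log2 fold change -5.80, adjusted p = 1.9e-05). In edgeR it held with RLE scaling factors (adjusted p = 0.0261) and without the tumor type term (adjusted p = 0.0282). A filter of at least 1 CPM in 4 tumors removed Msmb from the test. The exact two-sided permutation test of log2(CPM + 1) gave p = 0.0286 over 8 tumors and p = 0.0571 without primary AS 1, the smallest that 3 tumors against 4 can give, with AS and CR tumors still not overlapping. For metastatic against primary tumors the exact permutation test gave p = 0.6, and the edgeR filter of that comparison left Msmb out.

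Pbsn encodes probasin, a secreted lipocalin made by the rodent prostate under tight androgen control (ENSMUSG00000000003, mm10, chromosome X, 77837901 to 77853623, minus strand). It had 34 counts in primary AS 1, 1 count in metastatic CR 2, and 0 in the other 6 tumors, among them primary AS 2 and both metastatic AS tumors. In those 6, 0 counts allow up to 0.0294 to 0.147 CPM (3 counts), against 0.548 CPM in primary AS 1. The level by phenotype was therefore that of 1 tumor, and neither it nor the level by tumor type passed the exact permutation test (p = 1 for both).

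The tumor with the most Msmb and Pbsn also had the most counts of some gland markers and none of others. Primary AS 1 held 21 counts of Defb50, a prostate defensin, against 0 to 8 in the others. It held 14 of Svs4 and 10 of Svs5, which encode seminal vesicle secretory proteins, against 0 to 3 of each in the others. It tied with other tumors for Svs2 and Svs6, and had 0 counts of Pate4, Sbp and Svs3a. Svs3b had the most counts in metastatic CR 2 (7 against 2 in primary AS 1) and Tgm4 in primary CR 1 (506 against 457), although as CPM Tgm4 was highest in primary AS 1 (7.37). Of 5 secretory prostate markers only Tgm4 was counted throughout (82 to 506 counts), and Spink1 was at 0 in all 8 tumors. The prostate secretory list summed to 3.75 to 7.71 CPM in AS tumors and 4.16 to 6.23 CPM in CR tumors, and the seminal vesicle list of 6 genes to 0.0385 to 0.597 CPM and 0.0123 to 0.768 CPM. The part of normal gland tissue in the Msmb and Pbsn counts was not tested.

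**Figure D3:**
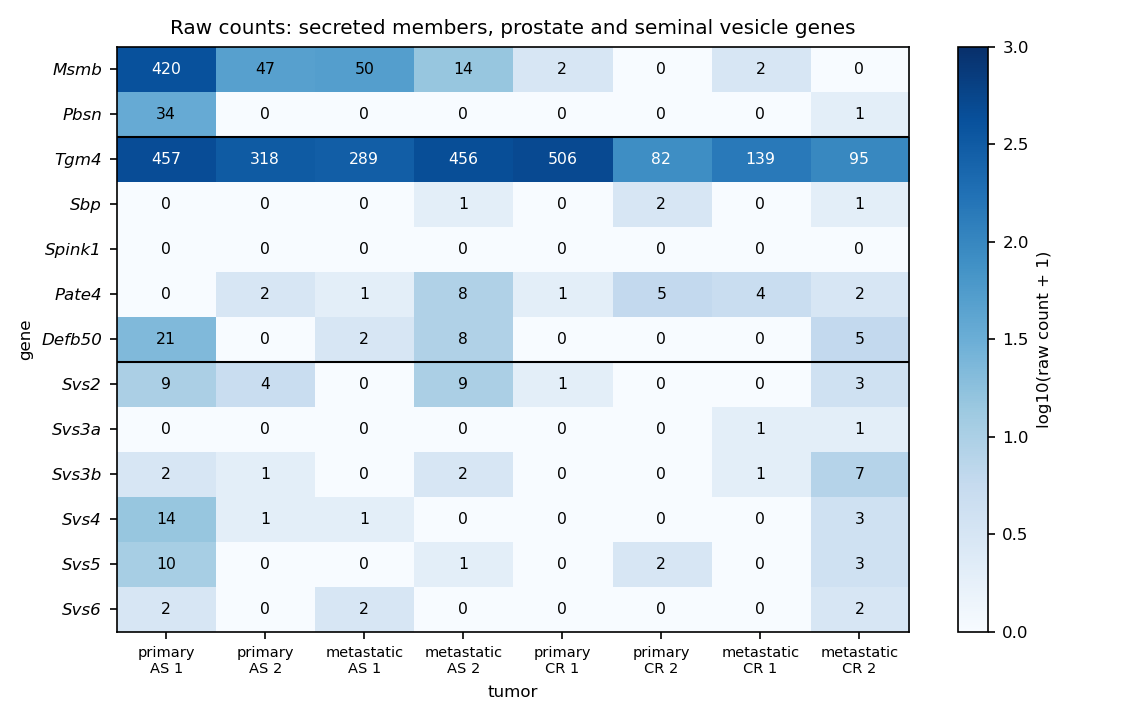
Raw counts of Msmb and Pbsn (top), 5 secretory prostate markers (middle) and 6 seminal vesicle markers (bottom) in the 8 tumors, with the count printed in each cell and color showing log10(count + 1). Primary AS 1 held 420 of the 535 Msmb counts, 34 of the 35 Pbsn counts and the most counts of Defb50, Svs4 and Svs5.

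Tmprss2, a membrane serine protease whose androgen-driven promoter is joined to ETS genes in many human prostate cancers, was close to absent (ENSMUSG00000000385, mm10, chromosome 16, 97564682 to 97611195, minus strand). Its counts were 14 and 5 in primary AS tumors, 0 and 0 in primary CR tumors, 2 and 8 in metastatic AS tumors, and 2 and 4 in metastatic CR tumors. The highest level, 0.226 CPM in primary AS 1, rested on 14 counts. In primary tumors the summed AS level was 4.90 times that of the CR tumors, taking 3 counts over the CR group for its 0. The 19 AS counts were taken as exact, so this ratio has no counting interval. In metastases the ratio of AS to CR was 0.548 (exact 95% counting interval 0.180 to 1.83), so no common direction was seen. The phenotype test did not pass (log2 fold change -1.14, SE 1.34, adjusted p = 0.628).

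Azgp1 and Homer2 were as rare. Azgp1 encodes zinc-alpha-2-glycoprotein, a secreted protein of prostatic fluid (ENSMUSG00000037053, mm10, chromosome 5, 137981520 to 137990233, plus strand). It had 4 and 1 counts in primary AS tumors, 0 and 0 in primary CR tumors, 5 and 0 in metastatic AS tumors, and 2 and 4 in metastatic CR tumors. It was not tested across genes, and its exact permutation p was 0.886 by phenotype and 0.371 by tumor type. Homer2 encodes a scaffold protein best known from synapses (ENSMUSG00000025813, mm10, chromosome 7, 81600481 to 81707527, minus strand). Its counts were 7 and 9 in primary AS tumors, 0 and 11 in primary CR tumors, 2 and 22 in metastatic AS tumors, and 4 and 31 in metastatic CR tumors. The highest level of both genes was in metastatic CR 2, the library with the largest share of counts on rare genes, and the part of that library in these levels was not tested. Homer2 did not pass the phenotype test (log2 fold change 1.73, SE 1.24, adjusted p = 0.403), and 2.30% of its exonic read positions are shared with Gm44570 on the opposite strand.

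**Figure D4:**
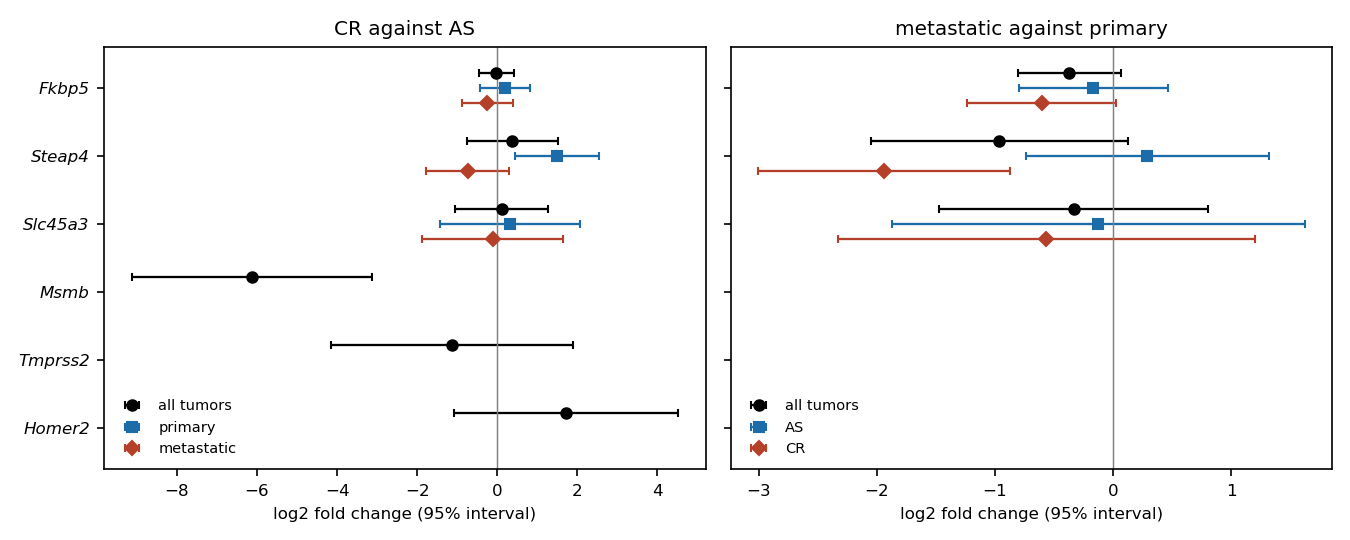
Fitted log2 fold changes with 95% intervals from edgeR for CR against AS tumors (left) and metastatic against primary tumors (right), over all 8 tumors and, for the 3 genes counted in every tumor, within each tumor type or phenotype. The interval of Msmb (-9.13 to -3.12) and those of Steap4 in primary tumors (0.45 to 2.55) and in CR tumors (-3.0 to -0.87) did not cover 0, and of these Msmb alone passed after adjustment.

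Varying levels were not a shared property of the 3 genes counted in every tumor. The SD of log2(CPM + 1) over the 8 tumors was 0.31 for Fkbp5, smaller than in most genes (42.0% of 13558 genes with a mean of at least 1 CPM had a smaller SD). It was 0.75 for Slc45a3 (91.6%) and 0.90 for Steap4 (94.9%). The median gene had 0.34. The genes with the most similar pattern over the 8 tumors, by root mean square distance between standardized log2(CPM + 1) values, were Cxxc5 (0.242) and Foxred2 (0.262) for Fkbp5, St3gal4 (0.242) and Suds3 (0.268) for Steap4, and Cand1 (0.173) and Cct2 (0.237) for Slc45a3. For Msmb they were Qsox2 (0.181) and Cyp2t4 (0.202), for Tmprss2 Atxn7 (0.275), and for Homer2 Rhoj (0.117) and Pik3c2b (0.207). The median distance over all genes compared was 1.30 to 1.55. With 8 points and 13557 or 13558 genes to choose from, small distances are found for every gene shown here.

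The glucocorticoid receptor gene Nr3c1 lay between 3.78 and 9.02 CPM over the 8 tumors. The progesterone and mineralocorticoid receptor genes Pgr and Nr3c2 were below 1 CPM in every tumor.

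Of 54 further genes known from prostate cancer cells to respond to androgen, 52 were found and 50 tested. In CR against AS tumors 3 rose, 6 fell and 41 did not pass. Among all genes 10.1% were called, 4.76% higher and 5.29% lower in CR tumors. The median log2 fold change was -0.02 over the list and 0.00 over all genes. The genes that rose were Rab3b, a vesicle GTPase (1.15 ± 0.560 CPM in AS and 7.98 ± 3.92 CPM in CR tumors, log2 fold change 2.82, adjusted p = 0.0184), the transcription factor Maf (0.88, adjusted p = 0.0364) and Pdlim5, a cytoskeletal adaptor (0.71, adjusted p = 0.0293). Those that fell most were the ubiquitin ligase Nedd4l (-2.09, adjusted p = 0.0429), the elongation factor partner Eaf2 (-1.96, adjusted p = 0.00447) and Tnfaip8, which restrains apoptosis (62.0 ± 8.30 CPM in AS and 16.5 ± 5.43 CPM in CR tumors, -1.95, adjusted p = 0.00275). Calls for Rab3b, Maf, Pdlim5 and Nedd4l were each lost in 4 to 7 of the 8 fits that left out a tumor, while those of Eaf2 and Tnfaip8 held in all 8.

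**Figure D5:**
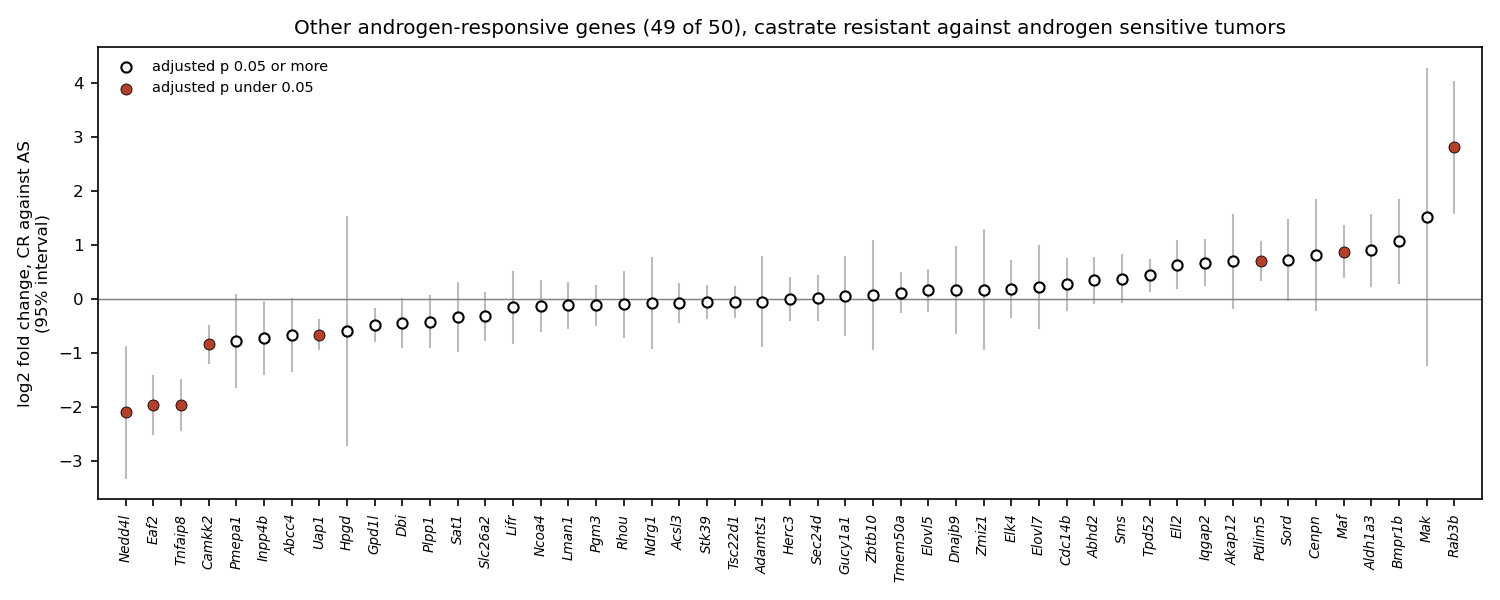
Log2 fold change of CR against AS tumors with its 95% interval for 49 of the other androgen-responsive genes, ordered by value, with genes past an adjusted p of 0.05 filled. The list ran from Nedd4l at -2.09 to Rab3b at 2.82, with 25 genes above 0, 3 filled on the right and 5 on the left.

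Of 9 tested genes that answer to glucocorticoid, as Fkbp5 does, 1 rose, 1 fell and 7 did not pass, beside 10.1% of all genes called. Errfi1, an inhibitor of EGF receptor signaling, rose in CR tumors (148 ± 38.9 CPM in AS and 252 ± 28.3 CPM in CR tumors, SD, n = 4 each; log2 fold change 0.79, adjusted p = 0.0495), a call lost in all 8 fits that left out a tumor. Tsc22d3, also known as Gilz, fell (214 ± 21.7 CPM in AS and 71.1 ± 33.0 CPM in CR tumors; -1.63, adjusted p = 0.0112), a call that held in all 8. The list's median log2 fold change was 0.19. Among 12 relatives of the 8 genes, 8 were tested and 1 passed (10.1% of all genes did), Slc45a4, a transporter of the family of Slc45a3 (22.2 ± 5.34 CPM in AS and 10.7 ± 1.60 CPM in CR tumors; -1.03, adjusted p = 0.00958), and the list's median was -0.31. In the comparison of metastatic with primary tumors none of the 48 androgen-responsive, 9 glucocorticoid-responsive and 7 related genes tested passed, where no gene did.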

How the data were processed

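RNA was measured in 8 tumors, 2 in each of 4 groups. The authors extracted total RNA with TRIzol, depleted ribosomal RNA, prepared stranded libraries and mapped paired reads to mm10, keeping reads at a single location with at most 2 mismatches. Their methods name Bowtie, and the submitters' processing notes list TopHat2 2.0 and CASAVA 1.8.2. The deposited values are raw counts per gene, without normalization. The counting tool, its use of strand and the annotation release are not given in the sources used here. Coordinates, exon lengths and gene types came from GENCODE M21 (36343 of 38115 identifiers matched).

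Tests across genes used edgeR 4.0.16 under R 4.3.3: filterByExpr, TMM factors (0.822 to 1.18) and the quasi-likelihood test, with p-values adjusted by the Benjamini-Hochberg method over all genes tested (18889 for phenotype and the contrasts of 4 group means, 17104 for tumor type) and a threshold of 0.05. Intervals are unadjusted. DESeq2 1.42.0, RLE factors, other filters, other terms and leaving out each tumor were alternatives. The fits were checked on simulated counts. Single genes were tested by exact two-sided permutation of log2(CPM + 1), with CPM on TMM effective library sizes. Counting intervals are exact (Clopper-Pearson or Poisson). Genes named were the 8 members, from each other list up to 3 genes per direction with the largest fold among those past the threshold, and for each tested member the 2 genes nearest in pattern, beside marker and receptor genes given as checks; a few genes covered by this rule are not reported here. Members and lists were chosen with earlier results of these data known. The human data, quantitative PCR and drug experiments were not analysed here.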

Additional observations from a re-analysis of the deposited data

Results flagged for a closer look

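Pbsn stood apart in 1 tumor of each grouping: primary AS 1 with 34 counts among AS tumors and among primary tumors, and metastatic CR 2 with 1 count among CR tumors and among metastases. In all 4 groupings the other 3 tumors were at 0, so the gap was the whole range of the group (share 1.0, past Dixon's limit for 4 tumors). The 8 genes in 4 groupings gave 32 such examinations and these 4 flags, and chance flags about 1 in 20 where values vary continuously, a rate that does not hold for a gene with 3 of 4 tumors at 0, where any count is flagged. The 4 flags come from the same 2 tumors. The flag in metastatic CR 2 rests on a single count. Primary AS 1 also held the most counts of Msmb, Defb50, Svs4 and Svs5, while other tumors had more counts of Svs3b and Tgm4 and Pate4, Sbp and Svs3a were at 0 in it. The part of normal gland tissue was not tested.

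For Steap4 the phenotype difference went opposite ways in the tumor types. CR primary tumors lay above AS primary tumors (log2 fold change 1.5, edgeR adjusted p = 0.221). CR metastases lay below AS metastases (-0.73, edgeR adjusted p = 0.395). Counting either direction, 41.6% of genes did not overlap between phenotypes in primary tumors and 57.1% in metastases. How many genes had opposite directions was not counted. The interaction was -2.23 (SE 0.64). Its adjusted p was 0.964 in edgeR over the 18889 genes that passed the filter on rare genes, a fit that called 0 genes. Without that filter the adjusted p was 0.0013, in a fit that called 217 of 31875 genes.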

How the results depend on the processing

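Depth and group size limit these results: metastatic CR 2 and primary CR 2 had the fewest counts and 5 of the 8 genes had 0 counts in at least 1 tumor. No paired analysis was possible because the primary tumor that each metastasis matches is not given. As a check chosen after seeing the data, all 4 ways to join primary tumors and metastases of a phenotype were fitted as blocks, and each called 0 genes for tumor type, with 887 to 1186 at an unadjusted p under 0.05. Fkbp5's difference was -0.38 in all 4 (adjusted p = 0.700 to 0.889). The number of genes called for phenotype, 1899, was 3545 with DESeq2, 3098 without the filter on rare genes, 56 in primary and 68 in metastatic tumors only, and 399 to 3784 with a tumor left out. For the interaction, 0 became 2 with DESeq2, 217 without the filter and 0 to 82 with a tumor left out (82 without primary CR 2). With a tumor left out, calls for phenotype within primary tumors (56) ran from 7 to 387 and within metastases (68) from 5 to 1552, and calls for tumor type within CR tumors (0) from 0 to 235. For tumor type over all tumors the count was 0 in every setting. The cause of these changes was not tested. The androgen-responsive list had 9 genes called, 15 with DESeq2 and 2 to 12 with a tumor left out. The list of relatives had 1, and 2 with DESeq2 or without the filter, where Steap1 was added (named after its values were seen), and 1 to 2 with a tumor left out. By permutation, the count of the 8 genes that passed for phenotype went from 1 (Msmb) to 0 without primary AS 1, where 3 tumors against 4 cannot reach the threshold. Fkbp5's phenotype difference changed sign, to 0.013 with DESeq2 and with RLE factors, 0.026 with at least 1 CPM in 4 tumors and 0.0045 without the tumor type term, and ran from -0.15 to 0.13 with a tumor left out. Other log2 differences that changed sign with a tumor left out had these ranges: for phenotype, Slc45a3 -0.69 to 0.41 and Steap4 -0.10 to 0.84; for metastatic against primary, Slc45a3 -0.61 to 0.20; for phenotype in primary tumors, Slc45a3 -1.70 to 1.12; for phenotype in metastases, Fkbp5 -0.69 to 0.035 and Slc45a3 -1.13 to 0.44; for tumor type in AS tumors, Steap4 -0.12 to 0.89; for tumor type in CR tumors, Slc45a3 -1.59 to 1.43; and for the interaction, Slc45a3 -1.47 to 1.55. None of these passed in any such fit. Pbsn's mean log2(CPM + 1) difference by phenotype, -0.14, was 0.014 without primary AS 1.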
